A study of Arabidopsis thaliana with 36 samples.

Results

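H69, a helix of the large-subunit rRNA, carries the same 3 pseudouridine (Ψ) places in the cytosolic, chloroplast and mitochondrial ribosomes of Arabidopsis thaliana, and the 9 sites that result were followed through 9 tissues. The sites were chosen by position, as the bases that line up in the 3 rRNA sequences, and they are 9 of the 186 rRNA sites in the deposited table. Of that table, 147 sites are nuclear, 28 chloroplast and 11 mitochondrial. The places are called first, middle and last in the 5′ to 3′ direction, with the middle place 4 bases and the last place 6 bases after the first.

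All plants were wild type, of the Col-0 accession. Seedlings of 7 days and shoots and roots of 14 days came from plates, rosetta leaves (spelled as in the labels) from plants of 30 days in soil, cauline leaves, stems, flowers and siliques from plants after flowering, and seeds were mature and dry. Total RNA was profiled by BID-seq, in which bisulfite marks Ψ so that reverse transcription skips it, and the share of reads with a deletion is converted to the Ψ fraction, the share of molecules that carry Ψ. Treated and input libraries were made in duplicate for every tissue (2 and 2). Because the authors merged the duplicates, each fraction is a lone number for its site and tissue, with no replicate error and no read depth to set it against. Tests below therefore use the tissue as the unit and ask only whether a difference between sites recurred over the 9 tissues. No 2 tissues could be tested against each other.

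Pseudouridine is an isomer of uridine that offers an extra hydrogen bond donor and tends to stiffen the RNA backbone. H69 is a short hairpin that reaches from the large subunit to the decoding site of the small subunit, where its loop touches the small-subunit rRNA and the tRNAs during translation. Its Ψ places are among the most widely shared in rRNA. In Escherichia coli a single stand-alone synthase, RluD, modifies the 3 places, whereas in the nuclear rRNA of eukaryotes most Ψ is placed by box H/ACA small nucleolar ribonucleoproteins, whose guide RNA selects the uridine.

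The sequences around the sites are shown because the comparison of genomes rests on their alignment, which needed no gap. Each window holds 30 bases of the RefSeq TAIR10.1 assembly, 5′ to 3′ on the rRNA strand, from 8 bases before the first place. Capitals mark every base listed as a Ψ site in the table.
Nuclear 25S, chr2:8380-8409, plus strand: ggtgggagTaacTaTgacTcTcttaaggta
Nuclear 25S, copy at chr3:14202351-14202380, plus strand: ggcgggagTaacTaTgacTcTcttaaggta
Chloroplast 23S, bases 106608 to 106637, plus strand: ggcggccgTaacTaTaacggtcctaaggta
Mitochondrial 26S, bases 141723 to 141752, minus strand: ggcggcagTaacTcTaacTgtcctaaggta
The first 3 capitals of each line are the 9 sites. The 2 nuclear copies differed at 1 base of the window (T-6C, counted from 0 at the first place), and the deposited fractions do not separate them. Between the organelles 27 of the 30 bases were the same (90.0%), with the differences C-2A, A5C and G10T from chloroplast to mitochondrion. The chromosome 2 copy shared 23 bases with the chloroplast (76.7%) and 24 with the mitochondrion (80.0%).

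The nuclear places were bases 8388, 8392 and 8394 of chromosome 2. They lay 2443 bases after the end of the Nu-5.8S gene AT2G01020, in a stretch of the 25S rRNA that the annotation does not cover. The chloroplast places were bases 106616, 106620 and 106622, inside the exon of the rrn23S gene (bases 104691 to 107500), which has 2 identical copies in the inverted repeat. The mitochondrial places were bases 141744, 141740 and 141738, inside the rrn26 gene (bases 140797 to 143965 on the minus strand), and this mitochondrial assembly is a later one than that of TAIR10.

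The predicted fold of each window was a hairpin. The first place was paired with an A 8 bases later and so closed the loop in the 3 genomes, whereas the middle and last places were unpaired within the 7 bases of the loop. With 15 bases added on each side this held for the nuclear and chloroplast rRNA, but the mitochondrial fold no longer paired the first place. The 5 bases centred on a place were the same in nuclear and mitochondrial rRNA at the first place, the same in nuclear and chloroplast rRNA at the middle place and different in each genome at the last place. The deletion signal of BID-seq varies with the neighbouring bases, and whether these differences moved the fractions was not tested.

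In the nuclear 25S, the first place carried Ψ fractions of 0.811 in seedling, 0.805 in shoot, 0.584 in root, 0.726 in rosetta leaf, 0.492 in cauline leaf, 0.556 in stem, 0.572 in flower, 0.649 in silique and 0.729 in seed. It was highest in the seedling and shoot and lowest in the cauline leaf. The middle place had 0.66 in seedling, 0.616 in shoot, 0.272 in root, 0.762 in rosetta leaf, 0.671 in cauline leaf, 0.792 in stem, 0.787 in flower, 0.717 in silique and 0.573 in seed. Root stood alone at the bottom, and leaving it out reduced the range from 0.52 to 0.219. The last place had 0.396 in seedling, 0.402 in shoot, 0.172 in root, 0.502 in rosetta leaf, 0.466 in cauline leaf, 0.482 in stem, 0.541 in flower, 0.541 in silique and 0.358 in seed. Root was again far below the rest, and without it the range fell from 0.369 to 0.183.

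In the chloroplast 23S, the first place was the lowest of the 3 in all tissues but seed, with 0.401 in seedling, 0.453 in shoot, 0.111 in root, 0.29 in rosetta leaf, 0.162 in cauline leaf, 0.269 in stem, 0.304 in flower, 0.169 in silique and 0.279 in seed. The middle place had 0.758 in seedling, 0.792 in shoot, 0.339 in root, 0.617 in rosetta leaf, 0.554 in cauline leaf, 0.725 in stem, 0.747 in flower, 0.691 in silique and 0.353 in seed. Root and seed were low and no other tissue came below 0.554. The last place had 0.71 in seedling, 0.733 in shoot, 0.612 in root, 0.5 in rosetta leaf, 0.401 in cauline leaf, 0.629 in stem, 0.632 in flower, 0.701 in silique and 0.262 in seed. Here seed was lowest and root was close to the median of 0.629.

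In the mitochondrial 26S, the first place had 0.737 in seedling, 0.832 in shoot, 0.458 in root, 0.402 in rosetta leaf, 0.623 in cauline leaf, 0.519 in stem, 0.368 in flower, 0.625 in silique and 0.239 in seed. The middle place had 0.402 in seedling, 0.48 in shoot, 0.326 in root, 0.355 in rosetta leaf, 0.508 in cauline leaf, 0.486 in stem, 0.711 in flower, 0.607 in silique and an entry of 0 in seed. The last place had 0.678 in seedling, 0.845 in shoot, 0.68 in root, 0.696 in rosetta leaf, 0.663 in cauline leaf, 0.714 in stem, 0.847 in flower, 0.904 in silique and likewise an entry of 0 in seed. Without seed, the range of the last place fell from 0.904 to 0.241 and that of the middle place from 0.711 to 0.385. A value of exactly 0 can be a failed estimate, and neither site passed the authors' filter in seed. Another site of the same rRNA, at base 141088, did not fall below 0.949 in any tissue.

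**Figure D1:**
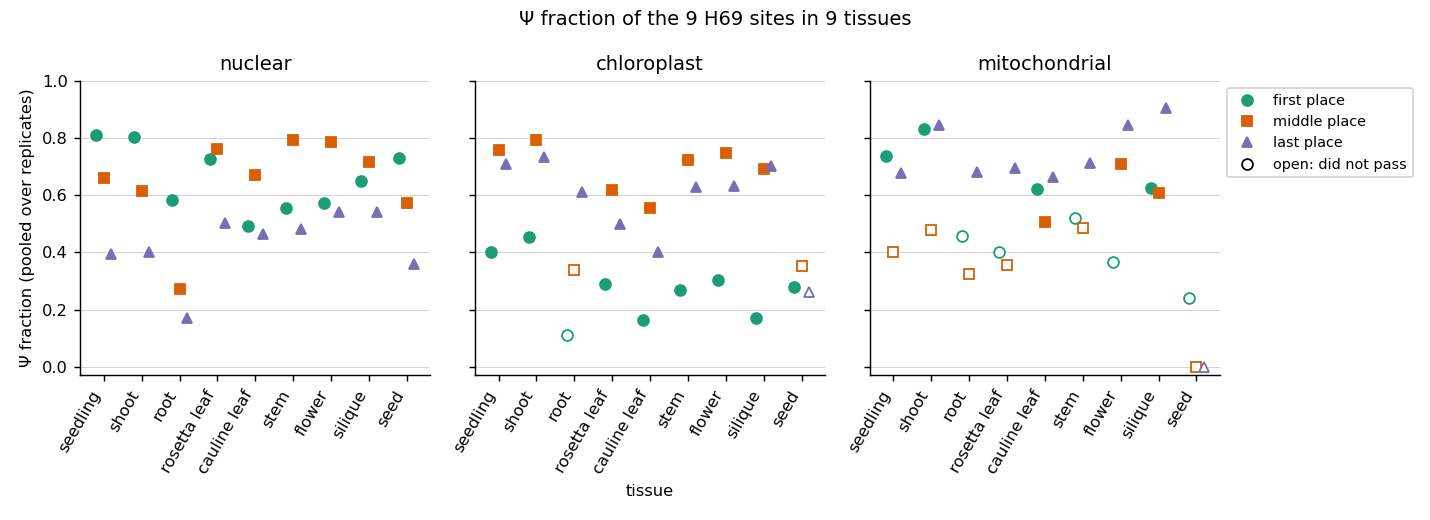
Ψ fraction (vertical axis, 0 to 1) of the first, middle and last H69 places in each of 9 tissues (horizontal axis), with 1 panel per genome and 1 point per site and tissue, each the authors' pooled value. Filled points passed the authors' filter and open points did not. The nuclear last place lies lowest of the 3 in 9 of 9 tissues, the chloroplast first place in 8, and the mitochondrial middle and last places are listed at 0 in seed.

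How often a site passed the authors' filter, which rests on p-values, differed by genome. The 3 nuclear sites passed in 9 of 9 tissues, and 62.6% of all nuclear rRNA sites did so. None of the 6 organelle sites passed in every tissue, and the share among listed sites was 7.14% in the chloroplast and 27.3% in the mitochondrion (52.2% over the whole table). The chloroplast first place passed in 8 tissues, the middle place in 7 and the last place in 8, with root, root and seed, and seed left out in that order. The mitochondrial first place passed in seedling, shoot, cauline leaf and silique only. The mitochondrial middle place passed in cauline leaf, flower and silique only, and the last place in all but seed. In sum, 65 of the 81 values passed. By tissue, 4 of 9 H69 sites passed in seed and 5 of 9 in root, where 79.6% and 62.9% of all rRNA sites did. There were 7 of 9 in rosetta leaf (60.2%) and stem (62.9%), 8 of 9 in seedling (66.7%), shoot (70.4%) and flower (69.9%), and 9 of 9 in cauline leaf (61.8%) and silique (71.0%). Seed thus had the fewest H69 sites passed and the highest share over the whole table. The H69 sites that did not pass in seed were all organelle sites, whereas 147 of the 186 sites in the table are nuclear. A share by genome was not computed for seed.

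The range of the H69 sites over the tissues was 0.319, 0.52 and 0.369 at the nuclear first, middle and last places, 0.342, 0.453 and 0.471 at those of the chloroplast and 0.593, 0.711 and 0.904 at those of the mitochondrion. Ranked from the widest within each genome, the nuclear ranges were 29, 13 and 21 of 147. Those of the chloroplast were 10, 7 and 6 of 28, and those of the mitochondrion 3, 2 and 1 of 11. A range of at least 0.3 was reached by 9 of 9 H69 sites and by 24.2% of all rRNA sites. Without root and seed the count was 4 of 9 (12.4% of all rRNA sites), and over the tissues in which a site passed it was also 4 of 9 (11.6% of the 146 rRNA sites with at least 2 such tissues), both computed after the values were seen. The median range was 0.471 over the H69 sites and 0.137 over all rRNA sites, and the median levels were 0.629 and 0.417. Most listed sites are nuclear, and these medians differed by genome. The other large-subunit sites had median levels of 0.821 in the nuclear, 0.058 in the chloroplast and 0.792 in the mitochondrial rRNA. Every nuclear and mitochondrial H69 median lay below that of its own rRNA, and every chloroplast one above. Median ranges over all listed sites of a genome were 0.13, 0.184 and 0.093. A fraction near 0 or 1 has little room to vary, and 49 sites outside H69 had a median of at least 0.9. No comparison with sites of like level was made. Depth and replicate error are unknown, so how much of these ranges is measurement error was not tested. Over the tissues in which a site passed, the range was 0.291, 0.238 and 0.332 at the chloroplast first, middle and last places and 0.209, 0.203 and 0.241 at the mitochondrial first, middle and last places. None of the 9 sites was near saturation by its median, although each large-subunit rRNA held a site that was. The median was 0.963 at base 107313 of the chloroplast 23S, and 1 at base 141088 of the mitochondrial 26S and at 5 tied nuclear sites, with base 6169 of chromosome 2 among them.

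Root and seed held most of the lowest values. The root value was smaller than the median of the remaining 8 tissues at 9 of 9 sites (71.5% of all rRNA sites), and the seed value at 8 of 9 (31.2%). The lowest value fell in root at 4 sites (51.6% of all rRNA sites), in seed at 4 (6.99%) and in cauline leaf at 1 (18.3%). The count in root was thus near the share of the whole table. In seed these were the chloroplast last place and the 3 mitochondrial places, and in root the nuclear middle and last places and the chloroplast first and middle places. None of these 4 seed values passed the authors' filter, and those of the mitochondrial middle and last places are entries of 0. All 4 belong to organelle sites, whereas 147 of the 186 rRNA sites are nuclear. The shares for seed were not computed by genome. Of the root values, the nuclear ones passed and the chloroplast ones did not. The median of the near-saturated rRNA sites outside H69 was also lower in root, at 0.907, than in the other tissues, at 0.956 to 0.979. In seed it was 0.97. Dividing each fraction by that level left the ranges of the nuclear middle and last places, whose lowest tissue was root, at 0.513 and 0.370. Division by a number so near 1 could change them only slightly. Whether the lower level in root bears on the H69 values was not tested.

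Seedling and shoot were the 2 highest tissues at 5 of the 9 sites, compared with 29.0% of all rRNA sites. These 5 were the first place in each genome and the middle and last places of the chloroplast, a grouping that was noticed after the values were seen. Their mean minus the median of the remaining 7 tissues was 0.224 at the nuclear first place, 0.158 at the chloroplast first place and 0.327 at the mitochondrial first place. At the nuclear middle and last places this difference was -0.079 and -0.083, so seedling and shoot lay below the typical tissue there.

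The next question was whether the 3 places of one rRNA were modified to the same degree. In the nuclear 25S the last place was the lowest in 9 of 9 tissues. Its mean difference was -0.221 ± 0.0601 from the middle place (SD over 9 tissues, exact two-sided sign-flip permutation test, p = 0.00391, adjusted p = 0.00879) and -0.229 ± 0.172 from the first place (the same p and adjusted p by the exact test). The p of 0.00391 is the smallest that 9 tissues allow, and p-values were adjusted by the Benjamini-Hochberg method over the 27 contrasts tested. The nuclear first and middle places exchanged ranks, with the first higher in seedling, shoot, root and seed and the middle higher in the other 5 tissues. Their mean difference was -0.00822, with tissues from -0.312 to 0.236 (adjusted exact p = 0.895).

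In the chloroplast 23S the first place was the lowest in 8 of 9 tissues. The middle place exceeded the first in 9 of 9 tissues by a mean of 0.349 ± 0.134 (adjusted exact p = 0.00879), and the last place exceeded the first in 8 of 9 tissues by 0.305 ± 0.162 (adjusted exact p = 0.0132), with seed the exception. The middle and last places differed by a mean of -0.044, with tissues from -0.153 to 0.273 (adjusted exact p = 0.384). The value of 0.273 was that of root. Without root the mean was -0.0836 and passed (adjusted exact p = 0.0248 with 8 tissues). It did not pass when any other single tissue was left out (adjusted exact p from 0.380 to 0.633).

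In the mitochondrial 26S the last place exceeded the middle place in 8 tissues and tied with it at 0 in seed, by a mean of 0.239 ± 0.122 (adjusted exact p = 0.0132). With the tissues restricted to the 3 in which both sites passed, the mean was 0.196, and 3 tissues cannot give a p below 0.25. The middle place was below the first in 8 of 9 tissues, but the mean of -0.103 did not pass (adjusted exact p = 0.180), with flower at 0.343. Without flower it was -0.159 and passed (adjusted exact p = 0.0162), whereas it did not pass without any other single tissue (adjusted exact p from 0.202 to 0.346). The last place exceeded the first in 7 tissues by a mean of 0.136, with tissues from -0.239 to 0.479 (adjusted exact p = 0.142). In total 5 of the 9 pairs of places within a genome passed the threshold of 0.05. Sites whose levels differ steadily over the tissues can pass such a test. The share of passing pairs among other rRNA sites was not computed.

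**Figure D2:**
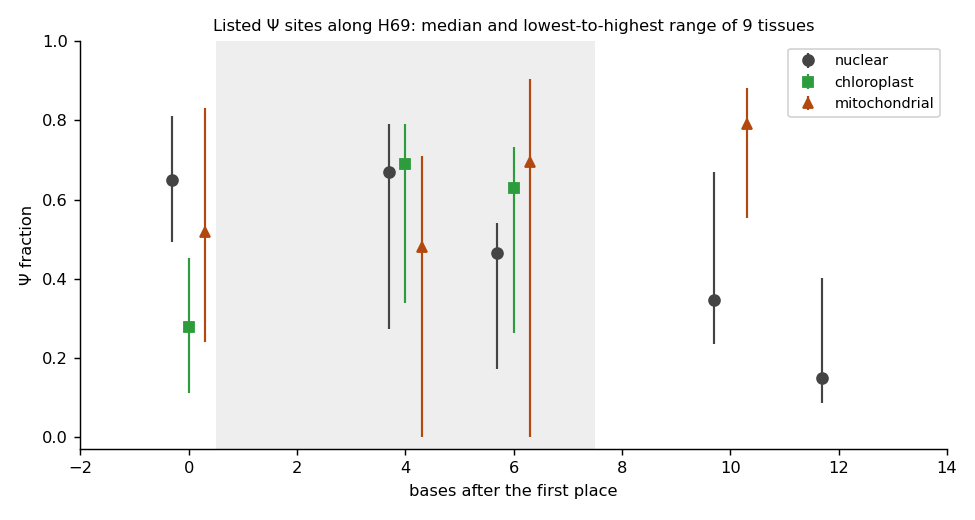
Median Ψ fraction over 9 tissues (points) with the lowest and highest tissue (bars) for every listed site in the H69 window, against the distance in bases from the first place, with a small sideways shift between genomes. The grey band marks the 7 bases of the predicted loop. At the first place the medians were 0.649 in the nuclear, 0.279 in the chloroplast and 0.519 in the mitochondrial rRNA, and at the last place 0.466, 0.629 and 0.696.

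Each place was then compared between the rRNAs of the 3 genomes within the same tissue libraries. The first place separated the chloroplast from the rest. The nuclear fraction exceeded that of the chloroplast in 9 of 9 tissues, by a mean of 0.387 ± 0.0803 and by 0.268 in the tissue with the smallest gap (adjusted exact p = 0.00879). The mitochondrial fraction exceeded that of the chloroplast in 8 of 9 tissues by 0.263 ± 0.179 (adjusted exact p = 0.0132), with seed the exception. Over the 4 tissues in which both of these organelle sites passed the filter the mean was 0.408, and 4 tissues cannot give a p below 0.125. The nuclear fraction exceeded the mitochondrial one in 7 tissues by a mean of 0.125 (adjusted exact p = 0.111). This contrast passed without cauline leaf, at 0.157 (adjusted exact p = 0.0372), but not without any other single tissue (adjusted exact p from 0.0999 to 0.211). It turned to -0.015 over the 4 tissues in which both sites passed the authors' filter.

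At the middle place the mitochondrion was the low genome. It was below the chloroplast in 9 of 9 tissues, with a mean difference of -0.189 ± 0.143 (adjusted exact p = 0.00879, and -0.169 with adjusted exact p = 0.0132 without the entry of 0 in seed), and below the nuclear rRNA in 8 of 9 tissues, by 0.219 ± 0.189 (adjusted exact p = 0.0132), with root the exception. Of the nuclear and chloroplast fractions neither was consistently higher, with a mean difference of 0.0304 and tissues from -0.176 to 0.22 (adjusted exact p = 0.499). Only cauline leaf, flower and silique had a mitochondrial middle place that passed the filter. In these 3 the mean difference was 0.116 for nuclear minus mitochondrial and -0.0553 for mitochondrial minus chloroplast rRNA.

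At the last place the nuclear fraction was the lowest of the 3 in 6 of 9 tissues. It was below the mitochondrion in 8 of 9 tissues, with a mean difference of -0.241 ± 0.249 (adjusted exact p = 0.0410), with seed, where the mitochondrial site was listed at 0, as the exception. This call held without seed, where the mean was -0.316 (adjusted exact p = 0.0132), and was lost when any one of the other 8 tissues was left out (adjusted exact p from 0.0633 to 0.0820), and on the logit scale (adjusted exact p = 0.254). The nuclear fraction was below that of the chloroplast in 6 tissues, with a mean difference of -0.147 ± 0.186 (adjusted exact p = 0.0888), and passed without seed, at -0.177 (adjusted exact p = 0.0444). The mitochondrial fraction exceeded that of the chloroplast in 7 tissues by 0.0941 ± 0.162 (adjusted exact p = 0.142), which also passed without seed, at 0.139 (adjusted exact p = 0.0234). Neither of these contrasts with the chloroplast passed when any other single tissue was left out. In all, 5 of the 9 pairs of genomes at a place passed, and here too no share among other rRNA sites was computed.

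**Figure D3:**
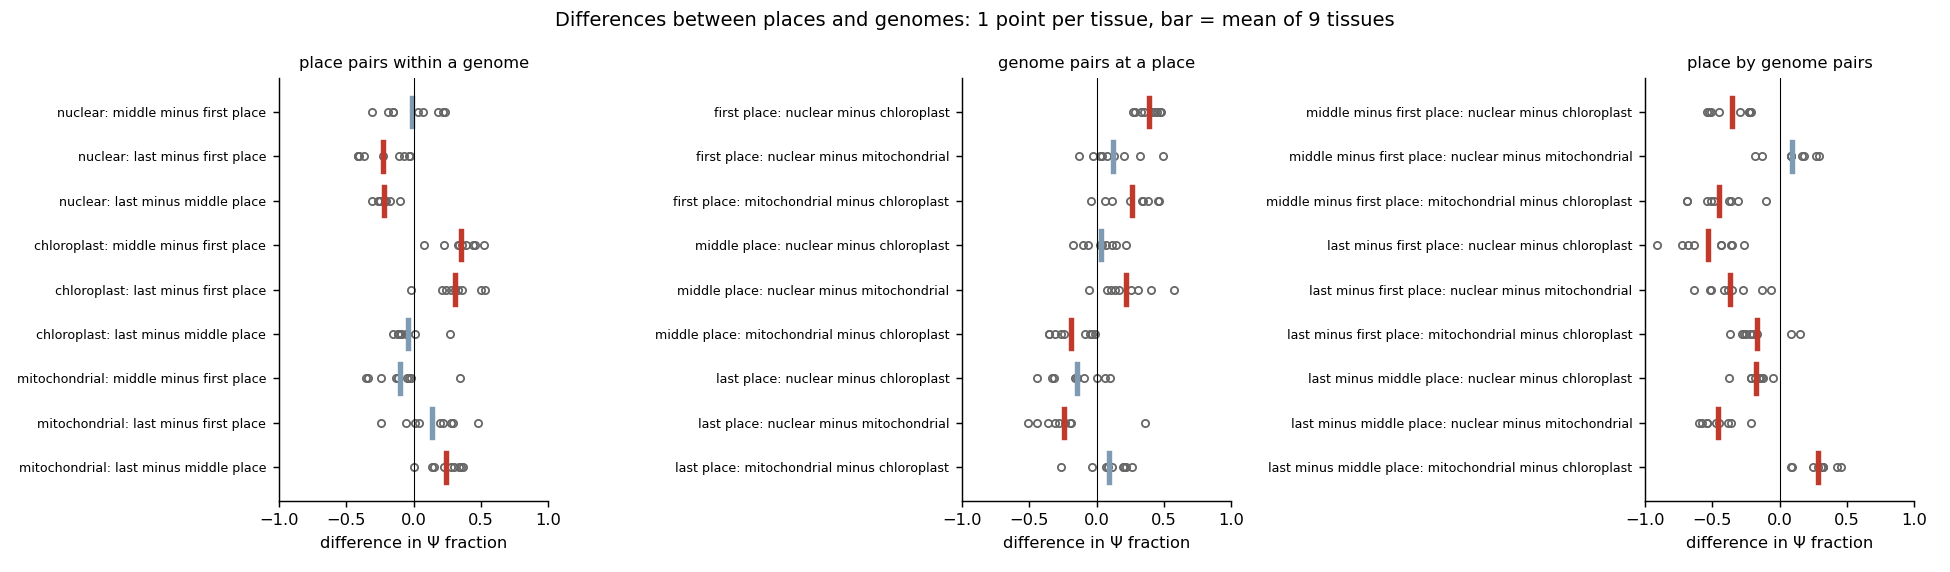
Differences in Ψ fraction (horizontal axis) for the 27 contrasts, with 1 open point per tissue and a bar at the mean of 9 tissues, in panels for pairs of places within a genome, pairs of genomes at a place and differences of such differences. Red bars passed at an adjusted p of 0.05 and blue bars did not. The nuclear minus chloroplast difference at the first place has every tissue between 0.268 and 0.48.

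The steps between places along the helix differed between genomes, which was tested on the differences themselves. Such a test compares the size and sign of steps, not the order of the places. The mean step from middle to last place, for example, was negative in both the nuclear and the chloroplast rRNA (-0.221 and -0.044, the second not called). The last place relative to the middle place gave a called difference for each of the 3 pairs of genomes. The nuclear step minus that of the chloroplast had a mean of -0.177 ± 0.0891, the nuclear step minus that of the mitochondrion -0.460 ± 0.124, and the mitochondrial step minus that of the chloroplast 0.283 ± 0.129 (adjusted exact p = 0.00879 for each). In seed the mitochondrial step is that between entries of 0, which did not pass the filter. With these taken as missing the pairs with the mitochondrion had means of -0.491 and 0.307, with the same sign in 8 of 8 tissues (adjusted exact p = 0.0132 for both). From the first to the middle place, the nuclear step was lower than that of the chloroplast, with a mean difference of -0.357 ± 0.146, and so was the mitochondrial step, at -0.452 ± 0.189 (adjusted exact p = 0.00879 for both). Without the entries of 0 in seed the second was -0.469 over 8 tissues (adjusted exact p = 0.0132). The nuclear and mitochondrial steps differed by a mean of 0.0949, with tissues from -0.18 to 0.294 (adjusted exact p = 0.142).

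From the first to the last place, the nuclear step was below that of the chloroplast, with a mean difference of -0.534 ± 0.215, and below that of the mitochondrion, at -0.365 ± 0.185 (adjusted exact p = 0.00879 for both). Without the entry of 0 in seed the second was -0.395 over 8 tissues (adjusted exact p = 0.0132). The mitochondrial step was below that of the chloroplast in 7 of 9 tissues, at -0.169 ± 0.173 (adjusted exact p = 0.0410). That call held without rosetta leaf (adjusted exact p = 0.0248) or flower (0.0234) and was lost without any one of the other 7 tissues (0.0603 to 0.0820). In total, with no share among other rRNA sites computed beside it, 8 of these 9 contrasts passed. Several of them rest on mitochondrial values that did not pass the authors' filter, and over the tissues in which every site of a contrast passed, 3 of 9 did, while 6 of the 9 were left with 5 or fewer tissues.

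Within each rRNA the 2 loop places had the most similar tissue patterns. Pearson's r between the middle and last places over the 9 tissues was 0.957 in the nuclear, 0.702 in the chloroplast and 0.901 in the mitochondrial rRNA (Spearman's rho 0.854, 0.85 and 0.667). The nuclear first place had r = -0.0251 to the middle and -0.115 to the last place, and -0.513 and -0.591 without root and seed. In the chloroplast the first place had r = 0.627 to the middle and 0.314 to the last place, and in the mitochondrion 0.426 and 0.592. These are descriptions over 9 tissues that share their libraries, and the loop places lie 2 bases apart, so that largely the same reads cover them. Without the 2 tissues farthest from the median of the middle place, r for the loop pair was 0.910 in the nuclear rRNA (root and stem left out), 0.927 in the chloroplast (root and seed left out) and 0.688 in the mitochondrion (seed and flower left out). Spearman's rho was then 0.901, 0.893 and 0.321, so the likeness by rank was weak in the mitochondrion. There the middle place passed the authors' filter in only 3 tissues. The mitochondrial first place had r = -0.107 and -0.150 to the middle and last places once shoot and seed were left out.

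**Figure D4:**
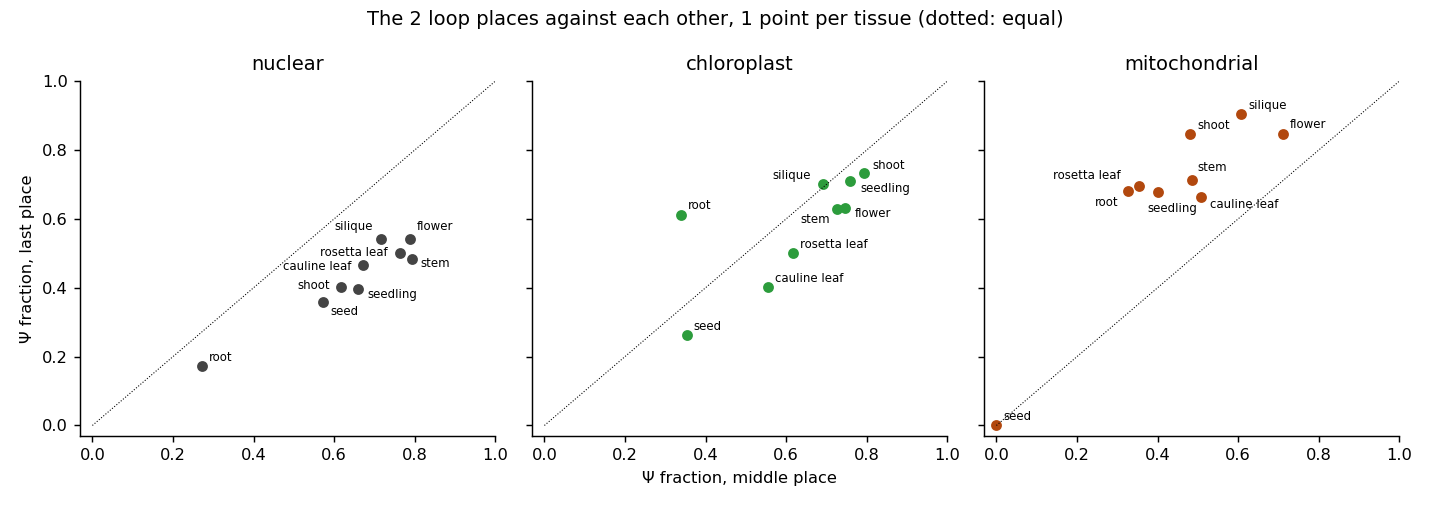
Ψ fraction of the last place (vertical axis) against that of the middle place (horizontal axis), with 1 labelled point per tissue, 1 panel per genome and a dotted line of equal values. In the nuclear panel 9 of 9 tissues lie below the line, in the mitochondrial panel 8 lie above it and seed lies at 0 on both axes, and in the chloroplast panel root and silique lie above it.

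Between genomes, likeness varied by place. At the first place r was 0.749 for nuclear and chloroplast rRNA and 0.625 without seedling and cauline leaf, while the mitochondrion had r = 0.293 to the nuclear and 0.378 to the chloroplast rRNA. At the middle place r was 0.715 for nuclear and chloroplast, 0.472 for nuclear and mitochondrial and 0.717 for chloroplast and mitochondrial rRNA. Without root and seed these became -0.129, 0.294 and 0.197, so the values of the chloroplast to the nuclear and to the mitochondrial rRNA rested on those 2 tissues. At the last place r was 0.830 between the organelles and 0.479 without seed and cauline leaf, 0.105 for nuclear and chloroplast, and 0.364 for nuclear and mitochondrial rRNA.

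The window held 3 further listed sites on the 3′ side of the stem. The nuclear site 10 bases after the first place (base 8398) had 0.626 in seedling, 0.569 in shoot, 0.318 in root, 0.236 in rosetta leaf, 0.28 in cauline leaf, 0.243 in stem, 0.425 in flower, 0.345 in silique and 0.671 in seed, and passed in 9 of 9 tissues. Its low tissues were the leaves and stem, and root was not lowest. The nuclear site 12 bases after (base 8400) was weaker, from 0.086 in cauline leaf to 0.401 in shoot with a median of 0.149, and passed in all tissues but rosetta leaf. In the predicted fold of the window both are paired, as the first place is, and over the 9 tissues both had a higher r to the first place (0.695 and 0.714) than to the middle place (r = -0.170 and -0.185) or the last (r = -0.244 and -0.299). Without seedling and cauline leaf, r to the first place was 0.564 and 0.591.

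The mitochondrial counterpart 10 bases after the first place (base 141734) was more highly modified, from 0.554 in root to 0.881 in rosetta leaf with a median of 0.792, and passed in all tissues but seed, where it had 0.765. It too was paired in the predicted fold of the window, though not with 15 bases added on each side. Its r to the 3 mitochondrial places was 0.261, 0.126 and 0.0738. The chloroplast has a G at that position and so no uridine to modify. A uridine 12 bases after the first place is present in the 3 genomes, and in the table it is a listed site in the nuclear rRNA only.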

How the data were processed

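BID-seq libraries of total RNA from 9 tissues (2 treated and 2 input libraries each, 36 in all) were sequenced by the authors and aligned to TAIR10 with their own pipeline. The deposited Ψ fraction of a site was made by the authors from gapped and ungapped reads summed over the replicates of a tissue, through a calibration curve, and a deposited TRUE or FALSE gives their p-value-based filter, whose thresholds are not given in the sources used here. Depth is unknown, so no interval or replicate error was computed. The tRNA table was not used. No column was without a mapped group.

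Table positions were placed on RefSeq TAIR10.1 by the offset that put most listed sites on a T, which was 147 of 147 nuclear (next best 51), 24 of 28 chloroplast (14) and 10 of 11 mitochondrial sites (8). Windows were folded with RNAfold 2.7.2. Differences were tested with exact two-sided sign-flip permutation tests of the mean over the 512 sign patterns of 9 tissues, adjusted over 27 contrasts, after a test on simulated data. Sites of a contrast share their tissue's libraries, and tissues are not replicates of a condition. The labels give no batch. Named sites were the 9 members, listed sites within 30 bases of a middle place, the 2 sites outside H69 with a range of at least 0.1 most alike to each genome's members, and each genome's highest other large-subunit site. Members, lists and tests were chosen with earlier results of these data known. Alternatives covered the statistic, the scale (logit, with fractions limited to 0.01 and 0.99), values of 0, the authors' filter, the tissue-wide level (the median of 49 sites with a median of at least 0.9), the tissues entering and the fold window. Python 3.11.15, numpy 2.4.6, pandas 2.3.3, scipy 1.17.1, Biopython 1.88 and matplotlib 3.10.9 were used.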

Additional observations from a re-analysis of the deposited data

Results flagged for a closer look

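A single tissue stood apart from the other 8 at 3 of the 9 sites. Root was separated at the nuclear middle place by a gap of 0.579 of the whole range and at the nuclear last place by 0.504, and seed at the mitochondrial last place, where it was listed at 0, by 0.733. Chance marks about 1 in 20 such extremes, and 18 were examined. That rate supposes draws from a single normal population, which different tissues are not. The share of all rRNA sites with such a tissue was not computed. Root was the lowest tissue at 51.6% of all rRNA sites, ties counted.

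Steps between places differed between genomes in 8 of 9 tests of the difference itself, in mean Ψ fraction. From first to middle place these were -0.357 for nuclear minus chloroplast and -0.452 for mitochondrial minus chloroplast. From first to last place they were -0.534 for nuclear minus chloroplast, -0.365 for nuclear minus mitochondrial and -0.169 for mitochondrial minus chloroplast. From middle to last place they were -0.177 for nuclear minus chloroplast, -0.460 for nuclear minus mitochondrial and 0.283 for mitochondrial minus chloroplast. The share of such differences among other rRNA sites was not computed.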

How the results depend on the processing

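No paired analysis was possible because of pooling, as far as replicates go: the authors merged those of a tissue and the columns carry no replicate number, so no replicate could be left out either. Pairing was by tissue in every test. Of the 27 contrasts, 18 passed, as 5 place pairs, 5 genome pairs and 8 place by genome pairs. No such count was made for other rRNA sites. Dividing by the near-saturated level of the tissue kept all 18. That setting divides every site of a tissue by the same number, from 0.907 to 0.979. It cannot change the sign of a difference in any tissue, so it could hardly have altered the calls. The logit scale kept 16, values of 0 taken as missing kept 17, and leaving out root and seed kept 17. Leaving out 1 tissue at a time kept 16 or 17, with 5 to 6, 4 to 7 and 7 to 8 contrasts passing in the 3 families. With the median in place of the mean the counts were 0, 0 and 0, since that statistic cannot give a p below 0.0625 with 9 tissues. Under these settings 0 of the 18 changed direction. With only the tissues in which each site passed the authors' filter, 9 calls were kept, the counts were 4, 3 and 3, and 13 of the 27 contrasts had 5 or fewer tissues, too few to reach the threshold.

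The uncalled nuclear middle minus first difference (-0.00822) changed sign to 0.036 as a median, to 0.0563 without root and seed, and to between 0.00963 and 0.0298 without seedling, shoot, root or seed in turn (it ran from -0.0388 to 0.0298 over the 9 omissions), and the uncalled nuclear minus mitochondrial difference at the first place to -0.015 over the 4 tissues passed. The cause was not tested.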

Other observations

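Outside H69, 113 rRNA sites with a range of at least 0.1 were compared with the mean of each genome's 3 sites over the 9 tissues. The closest to the nuclear mean were both in the 25S, at bases 8270 (r = 0.953, from 0.842 in root to 0.99 in stem) and 8859 (r = 0.950, from 0.892 in root to 1 in shoot) of chromosome 2. Without root r fell to 0.666 and 0.637. The closest to the chloroplast mean were also nuclear, at base 8747 in the 25S (r = 0.822, and 0.782 without root) and base 4005 in the 18S gene AT2G01010 (r = 0.817, and 0.851 without root). The closest to the mitochondrial mean were base 8977 in the 25S (r = 0.628, and 0.918 without root) and again base 4005 (r = 0.566, and 0.561 without root). These sites share their libraries with the H69 sites, were picked as the highest of 113, and carry no test.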
